A study of Mus musculus with 3 samples.

Results

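The genes described here are the glucose and amino acid transporters of the kidney, taken as every gene of the deposited gene list whose symbol begins with Slc1a, Slc2a, Slc3a, Slc5a, Slc6a, Slc7a, Slc36a, Slc38a or Slc43a. This rule used no measured value. It gave 91 of the 27998 genes, of which 4 are no transporters. Of these, Slc6a19os, Slc36a1os and Slc36a3os are annotated as antisense transcripts, and Slc7a6os is a protein-coding gene of its own. Kidney cells of 2 Aoah-/- mice (mouse 2 and mouse 3) and 1 wild-type (WT) mouse, all 6 to 8 weeks old by the labels, were profiled by droplet single-cell RNA sequencing on day 14 of a folic acid (FA) model of kidney injury. Acyloxyacyl hydrolase, the product of Aoah, is an enzyme that inactivates lipopolysaccharide. The Aoah-/- mice lack the gene in all cells, were bred onto C57BL/6J and were compared with WT littermates. Every mouse had received FA, so no uninjured kidney enters the comparison, and each library came from 1 mouse. With 1 WT library the spread among WT mice was not measured, and no test between genotypes was run. Differences between genotypes are given by their size in each Aoah-/- library.

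The proximal tubule (PT) takes back nearly all filtered glucose and amino acids. Sodium-coupled carriers on the brush border draw them into the cell, and facilitative carriers and exchangers on the basolateral side release them to the blood. The segments S1, S2 and S3 follow each other along the tubule: the early part holds carriers of high capacity and the late part carriers of high affinity, which recover what is left. Other kidney and immune cells use members of the same families for their own supply of sugar, osmolytes and amino acids.

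The libraries held 158551992 to 167222984 unique molecular identifiers (UMIs, one per captured RNA molecule) in 23072 to 25516 barcodes. After removal of barcodes with under 200 genes or over 50% mitochondrial UMIs, 18202 to 21368 cells were kept. Barcodes began at 500 UMIs in Aoah-/- mouse 2 and in WT but at 1672 UMIs in Aoah-/- mouse 3, so the lower limit of the called cells differed between libraries. Pairs of libraries shared 171 to 176 barcodes. Aoah was counted at 6.06 and 5.68 counts for each 1000000 UMIs (CPM) in the Aoah-/- libraries and at 15.3 CPM in the WT library. It was lower in both but not absent, and the deleted part of the gene is not given in the sources used here. Clusters were named by fixed marker genes, none of which is a member, and the members took no part in the clustering. Of the kept cells, 7.60%, 19.6% and 6.52% lay in clusters left unnamed. Most of these had the markers of 1 cell type but also genes or markers of another, PT markers among them, and 1 group was led by injury genes without PT markers.

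PT clusters were divided by segment markers into S1-like PT cells (2240 and 1390 cells in Aoah-/- mice 2 and 3 and 1549 in WT; values below keep this order), which held the early-segment markers Gatm, Spp2 and Slc4a4, and S2/S3-like PT cells (2848, 2079 and 4062 cells). In the latter, markers known for S2 (Slc22a6, Cyp2e1 and Cyp4b1) stood together with the S3 markers Acsm3 and Cyp2a4. Other S3 markers, Cyp7b1, Serpina1f, Slc22a13 and Slc22a19, had means of only 0.23, 0.54, 5.29 and 6.75 CPM there. A further 3798 PT cells lay between the segments by these markers and 3929 were of low UMI count, and both groups were kept apart. S2/S3-like cells made up 56.0%, 59.9% and 72.4% of both segments together. A small subcluster with Cyp7b1 and Serpina1f (means of 326 and 238 CPM), called deep S3-like here, held 52, 33 and 45 cells. There Slc22a6, Cyp2e1 and Cyp4b1 had means of 332, 355.5 and 845 CPM, against 953, 1305 and 2207 CPM in S2/S3-like cells. By these markers the S2/S3-like class lay nearer to S2. Injured PT-like cells, led by the injury genes Vcam1, Cp and Spp1 and also by the cytokine and complement genes Ccl2, Cxcl1 and C3, numbered 216, 411 and 141. A level below is a gene's UMI sum in the cells of 1 class and library, in CPM of all UMIs there. Because the method tags RNA ends, a level does not scale with gene length, and levels are compared between cells and not between genes.

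All 91 members had at least 1 UMI, but 19 had under 30 UMIs over the 3 libraries together, and 25 had over 10000. At 20 CPM or more in every library of the class where it was highest, 41 members could be placed. Of these, 20 were highest in a PT class and 21 elsewhere. For 26 of the 41, the lowest library of the highest class lay above the highest library of the next class. The map of levels by class shows the PT block and smaller groups in the thick ascending limb, collecting duct, endothelium and neutrophils.

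**Figure D1:**
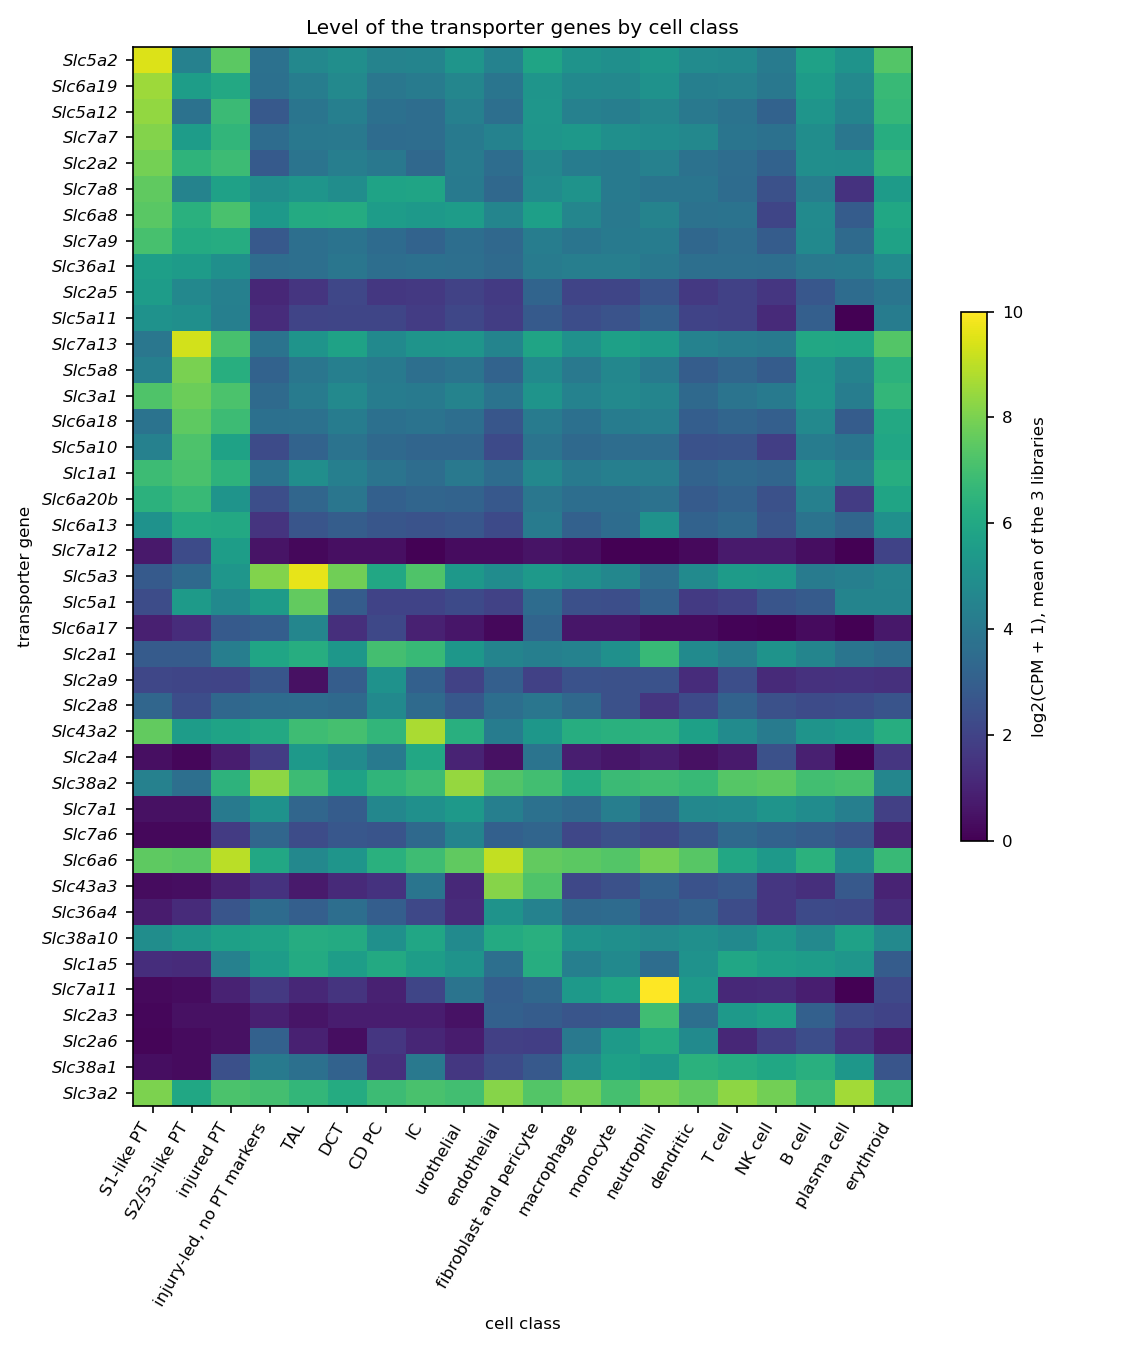
Mean level over the 3 libraries, as log2(CPM + 1), of the 41 members at 20 CPM or more in every library of their highest class (rows, ordered by that class) in 20 marker-based cell classes (columns). The brightest fields are Slc5a2 in S1-like PT, Slc7a13 in S2/S3-like PT, Slc5a3 in TAL and Slc7a11 in neutrophil-like cells.

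The 2 apical glucose carriers were divided between the 2 PT classes. Slc5a2 (chr7:128265657-128272430), which encodes the high-capacity glucose carrier SGLT2, stood at 647, 755 and 721 CPM in S1-like PT cells, against 15.5, 23 and 20.8 CPM in S2/S3-like cells. The S1-like level was thus 41.7-, 32.9- and 34.6-fold higher, and the ranges did not overlap. In T cell-like cells, which are not known to use this gene, 28.6, 28.5 and 21.5 CPM were counted, so the S2/S3-like values were at the level that free RNA can give. Slc5a1 (chr5:33104219-33162870), the high-affinity carrier SGLT1, ran the other way. It was at 6.89, 3.98 and 1.04 CPM in S1-like and at 48.2, 46.0 and 32.3 CPM in S2/S3-like cells, with T cell-like cells at 1.72 to 3.47 CPM.

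Both segments were compared within each library over all genes that passed a filter (a mean of at least 10 CPM and at least 30 UMIs), and a gene was called when it differed at least 2-fold in the same direction in each of the 3 libraries. Of the 91 members, 26 passed the filter, 8 were lower in S2/S3-like cells and 6 were higher. Over all 6776 genes tested, 2.45% were lower and 4.07% were higher. Early and late PT are what the markers separate, so these counts describe the segments and are no test. The plot of segment ratios shows a wide range in both directions, with the 12 uncalled members between.

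**Figure D2:**
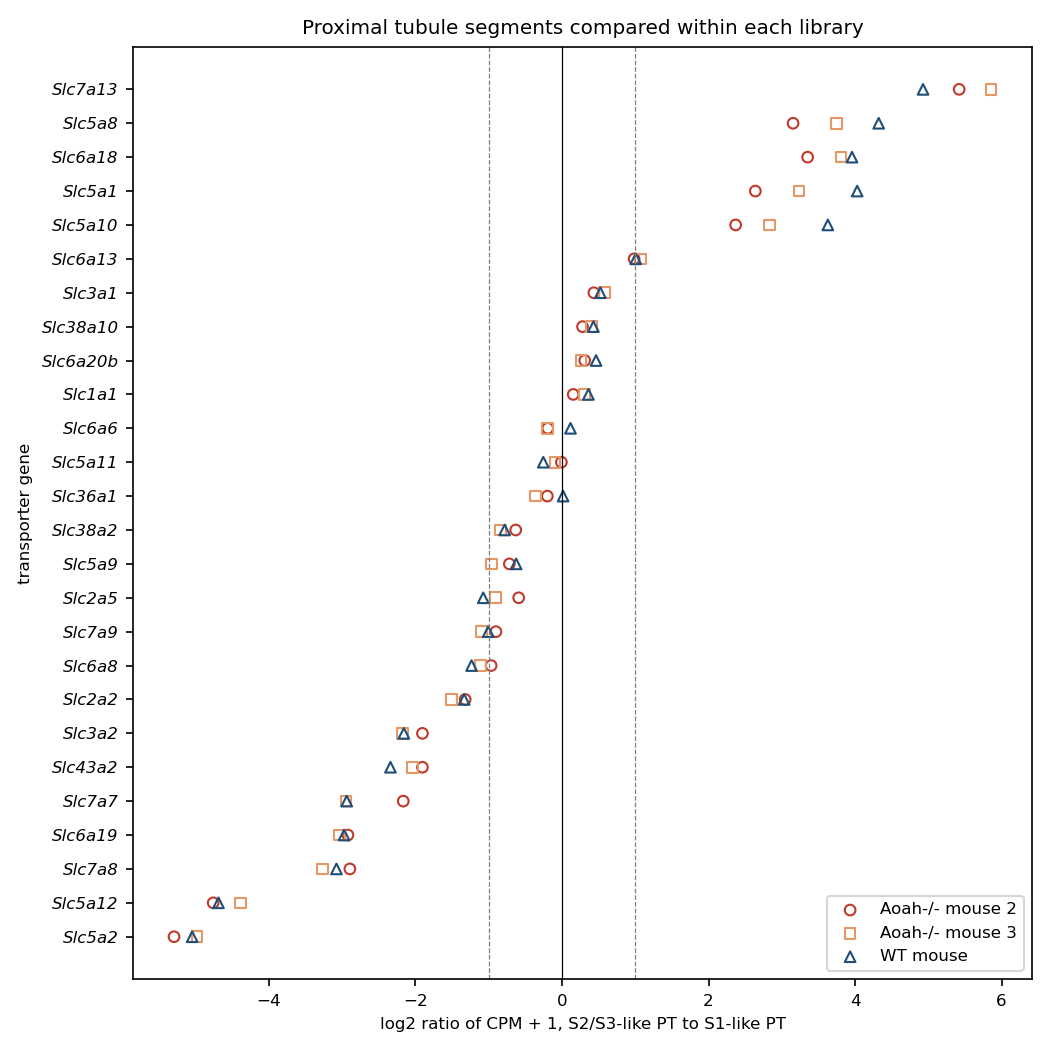
Log2 ratio of CPM + 1 in S2/S3-like to S1-like PT cells for the 26 members that passed the filter, 1 symbol per library (circle, Aoah-/- mouse 2; square, Aoah-/- mouse 3; triangle, WT mouse). Dashed lines mark 2-fold; Slc5a2 and Slc5a12 lie farthest to the left and Slc7a13 farthest to the right in all 3 libraries.

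Other sugar carriers differed less between the segments. Slc2a2, which encodes GLUT2, the basolateral exit for glucose in early PT, was at 246, 248 and 216 CPM in S1-like and 97.8, 86.9 and 85.0 CPM in S2/S3-like cells. Slc5a10, a carrier for mannose and fructose, was at 30.7, 21.3 and 8.48 CPM in S1-like and at 163, 158 and 116 CPM in S2/S3-like cells. The fructose carrier Slc2a5 had 41.9, 48.2 and 44.3 CPM against 27.5, 25.3 and 20.5 CPM and did not reach 2-fold in every library. Slc5a11, a carrier for inositol, had nearly equal levels in both segments (31.9 to 35.4 CPM and 26.5 to 33.0 CPM). Slc2a1, the glucose carrier GLUT1, was at 6.01 to 6.69 and 5.05 to 8.59 CPM in the 2 segments and stood below the filter there.

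The 2 sodium-coupled monocarboxylate carriers, which take up lactate, again divided the tubule. Slc5a12, of low affinity, was at 342, 348 and 299 CPM in S1-like cells. In S2/S3-like cells it was at 11.7, 15.6 and 10.6 CPM, near the 10.0 to 15.4 CPM of T cell-like cells. In the deep S3-like cells no UMI of it was counted. Slc5a8, of high affinity, was at 26.6, 20.1 and 10.4 CPM in S1-like and at 245, 283 and 226 CPM in S2/S3-like cells, 9.20-, 14.1- and 21.8-fold higher.

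Carriers for neutral amino acids on the brush border showed the same split. Slc6a19, which encodes B0AT1, the main early carrier for neutral amino acids, was at 395, 378 and 334 CPM in S1-like and 51.3, 45.1 and 41.6 CPM in S2/S3-like cells. Its relative Slc6a18 was at 15.6, 13.6 and 10.2 CPM in S1-like and 169, 203 and 173 CPM in S2/S3-like cells. Slc6a20b changed little along the tubule (82.9, 93.9 and 75.0 against 103, 113 and 104 CPM). The proton-coupled carrier Slc36a2, for glycine and proline, had 32 UMIs in all and a single one in S1-like and S2/S3-like cells together.

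Slc3a1 and its partners were less divided, apart from Slc7a13. Slc3a1 (rBAT) and Slc7a9 form a heterodimer that takes up cystine and basic amino acids and whose loss causes cystinuria. Slc7a9 was at 142, 136 and 130 CPM in S1-like and 75.4, 63.2 and 64.4 CPM in S2/S3-like cells, while Slc3a1 was at 155, 159 and 140.5 CPM against 210.1, 238 and 202 CPM. Slc7a13 (chr4:19818725-19842218), a second partner of Slc3a1 known from the straight part of the tubule, was at 11.3, 10.54 and 22.4 CPM in S1-like cells and at 524, 668 and 712 CPM in S2/S3-like cells. Its S2/S3-like level was 46.5-, 63.4- and 31.7-fold above the S1-like level, and the S1-like values were no higher than the 11.7, 17.2 and 24.6 CPM of T cell-like cells.

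RefSeq promoters (GRCm38.p6, 250 bases before to 50 after the start) were found for 68 of the 91 members, with 91 promoters in all, and were searched on both strands for short motifs. The letters CAAAGTCCA, a site type of the PT factor HNF4A, were present in 0.475% of all 32851 promoters and in 1 member, Slc3a1. This stretch is shown because its product is the shared partner of both cystine carriers. It lies on the plus strand at chr17:85028097-85028346, the match is in capitals and begins 39 bases before the start site:
Slc3a1: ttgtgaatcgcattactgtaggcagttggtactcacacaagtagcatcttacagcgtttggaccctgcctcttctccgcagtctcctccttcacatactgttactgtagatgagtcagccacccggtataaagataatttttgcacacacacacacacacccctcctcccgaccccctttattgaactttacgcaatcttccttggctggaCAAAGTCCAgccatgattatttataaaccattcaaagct
A match is a string of letters and not a measured site.

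The basolateral exchangers and efflux carriers that could be compared were lower in S2/S3-like than in S1-like cells. Of 8 genes, 4 passed the filter and these 4 were lower in S2/S3-like cells in each library. Slc7a8, the light chain LAT2, was at 180, 213 and 166 CPM in S1-like and 23.4, 21.2 and 18.8 CPM in S2/S3-like cells. Slc7a7, the light chain y+LAT1 that exports basic amino acids, was at 294, 281 and 265 CPM against 64.8, 35.5 and 33.7 CPM. Their shared heavy chain Slc3a2 was at 251, 274 and 252 CPM against 66.2, 60.02 and 55.6 CPM. The uniporter Slc43a2 was at 194, 217 and 164 CPM against 51.1, 52.0 and 31.6 CPM. The summed level of the 8 genes was 920, 986 and 848 CPM in S1-like cells and 206, 169 and 140.0 CPM in S2/S3-like cells. For Slc3a2, T cell-like cells held more than either segment (285, 319 and 336.5 CPM). Their mean of 314 CPM was the second highest of the classes compared, so for Slc3a2 it need not be free RNA.

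Members with other substrates that passed the filter varied less. Below the filter, some were divided in every library. Slc38a3 was at 2.52, 1.42 and 0.377 CPM in S1-like and at 16.7, 13.6 and 4.96 CPM in S2/S3-like cells. Slc1a4 was at 6.35, 3.24 and 1.70 against 20.3, 15.4 and 10.3 CPM. The other way, Slc7a2 was at 3.61, 3.92 and 5.94 against 0.470, 0.043 and 0.142 CPM. Slc1a1, the glutamate and aspartate carrier EAAT3, was at 122, 119 and 101 CPM in S1-like and at 136, 148 and 130 CPM in S2/S3-like cells. Slc6a13, a carrier for betaine and GABA, was at 32.1, 36 and 32 CPM against 64.4, 76.6 and 65.2 CPM, just past 2-fold in CPM in all libraries and on the line in the plot, which adds 1 to each CPM. Slc6a6, the taurine carrier, was at 164 to 203 CPM and 163 to 178 CPM in the 2 segments. Slc6a8, for creatine, had 179, 175 and 164 CPM against 91.2, 80.7 and 69.3 CPM and missed 2-fold in 1 library.

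Of 13 genes known as partners or regulators of these carriers, 13 passed the filter and 2 were lower in S2/S3-like cells. These were Pdzk1ip1, the small partner of SGLT2 (839, 920 and 874 against 372, 388 and 407 CPM), and Slc16a10, a carrier for aromatic amino acids (61.6, 65.6 and 42.9 against 14.8, 13.3 and 10.3 CPM). Tmem27, which brings B0AT1 to the membrane, was at 2234.8, 2539 and 2113 CPM against 1095, 1277 and 1172 CPM and missed the threshold. The PT factor Hnf4a had a mean log2 ratio of 0.09 between the segments.

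In the deep S3-like cells, which held under 50 cells in 2 libraries and are given as a description, Slc7a13 was at 1060, 1254 and 1118 CPM, above its S2/S3-like level in every library. Slc5a8 was at 310, 320 and 272 CPM there and Slc6a18 at 200, 260 and 403 CPM. Slc6a19 was at 21.4, 2.62 and 11.6 CPM. These levels continued the order from S1-like to S2/S3-like cells, whereas Slc5a1, at 17.8, 21 and 43.5 CPM, did not rise further in the Aoah-/- libraries.

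Outside the PT, cells of the thick ascending limb (TAL) led for 3 members. Slc5a3 (chr16:92058322-92087473), the sodium-coupled carrier of the osmolyte inositol, was at 807, 637 and 908 CPM in TAL-like cells and at 235, 191 and 262 CPM in distal convoluted tubule-like cells, against 5.84 to 6.40 CPM in S1-like PT cells. Slc5a1 had a higher level in TAL-like cells, 200, 201 and 177 CPM, than in S2/S3-like PT cells. Its TAL-like mean was 4.41-fold that of the next class, the injury-led cells without PT markers. Slc6a17, a carrier of neutral amino acids best known from neurons, was at 20.96 to 26.7 CPM in TAL-like cells and at 8.32 CPM in the next class.

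Collecting duct cells carried facilitative sugar carriers. Slc2a1 was at 137, 118 and 130 CPM in principal cell-like and 107, 98.9 and 114 CPM in intercalated cell-like cells. Neutrophil-like cells held it at a mean of 107 CPM. Slc2a9, the urate carrier GLUT9, was at 29.6, 29.6 and 39.5 CPM in principal cell-like cells, 4.40-fold above the next class. Slc43a2 was highest in intercalated cell-like cells, at 449, 460 and 357.5 CPM, above all PT values. Slc2a4, the insulin-dependent GLUT4 of muscle and fat, was at 65.1, 68.3 and 53.4 CPM in intercalated cell-like cells and 32.0, 37.1 and 54.0 CPM in TAL-like cells, ranges that overlapped.

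Among leukocytes the clearest pattern was that of Slc7a11 (chr3:49892526-50443614), which encodes xCT, the exchanger that imports cystine for glutathione. It was at 1007, 1099 and 989 CPM in neutrophil-like cells, from 1558, 1914 and 453 UMIs, and at 53.7, 71.3 and 44.7 CPM in monocyte-like cells. In S1-like PT cells it did not exceed 0.473 CPM. The neutrophil-like mean was 18.2-fold that of monocyte-like cells, the next class. Slc2a3, the high-affinity GLUT3, was at 114, 102 and 144 CPM in neutrophil-like cells. NK cell-like cells came next, at a mean of 50.9 CPM, and T cell-like cells had 34.5, 44.0 and 41.8 CPM. Slc2a6 was also highest in neutrophil-like cells, at 71.1, 61.4 and 76.4 CPM. Slc38a1, a glutamine carrier, was at 79.2 to 90.0 CPM in dendritic-like cells and 68.4 to 74.4 CPM in T cell-like cells. B cell-like cells lay between, at a mean of 77.6 CPM.

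The promoter of Slc7a11 is shown because it holds 2 matches, on opposite strands, to TGATGCAA, the core of the amino acid response element that the stress factor ATF4 is known to bind. These letters were in 0.895% of the 32851 promoters and in 3 member genes, Slc1a4, Slc7a7 and Slc7a11. The stretch lies on the minus strand at chr3:50443614-50443863 of GRCm38.p6, with the matches in capitals beginning 66 and 47 bases before the start site:
Slc7a11: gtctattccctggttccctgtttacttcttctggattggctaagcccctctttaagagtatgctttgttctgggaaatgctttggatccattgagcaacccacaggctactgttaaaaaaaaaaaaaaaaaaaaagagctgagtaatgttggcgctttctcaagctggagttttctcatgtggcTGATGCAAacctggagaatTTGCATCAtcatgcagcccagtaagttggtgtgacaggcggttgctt
The match describes the sequence only.

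Endothelial-like cells led for 3 members. Slc6a6 was at 558, 558 and 503 CPM there, a range that overlapped with that of injured PT-like cells. Slc43a3, a purine carrier, was at 297, 288 and 281 CPM, against 0.189 to 0.405 CPM in S1-like PT cells. Fibroblast- and pericyte-like cells were next for this gene, at a mean of 149 CPM and with an overlapping range. None of the 7 genes for cationic uniporters and cystine exchange passed the filter between the PT segments. In urothelial-like cells Slc38a2, the amino acid-regulated carrier SNAT2, was at 331, 255 and 437 CPM, against 13, 11 and 10.4 CPM in S2/S3-like PT cells. The class of injury-led cells without PT markers came next, with an overlapping range. Slc1a5, the glutamine carrier ASCT2, was at 66.1 to 74.3 CPM in TAL-like cells and at 0.754 to 2.19 CPM in S1-like PT cells.

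The genotypes were compared within the classes, and a gene was called when both Aoah-/- libraries lay at least 1.5-fold above or below the WT library. In S1-like PT cells 25 members passed the filter, 1 was called lower and 2 higher, against 1.23% lower and 2.21% higher of all 6656 genes tested. The main S1 carriers differed little. Slc5a2 gave a log2 ratio of the Aoah-/- mean to WT of -0.04, with 1 library on each side of WT. Most members leaned the same way: in 21 of the 25 both Aoah-/- libraries were above WT, whereas this held for 40.6% of all genes tested, and the median log2 ratio was 0.19 for the members and -0.01 for all genes. S1-like cells came from 2 clusters, with 727, 620 and 295 cells and with 1515, 770 and 1254 cells before the deep S3-like cells were taken out. Median UMIs per cell were 19870.5 and 2076. Log2 ratios in the first and second cluster were -0.04 and 0.46 for Slc6a19, 0.01 and 0.32 for Slc2a2 and 0.20 and 0.24 for Slc1a1. The part of this mixture in the lean was not tested. The called rises were of genes of the late tubule, Slc5a10 (30.7 and 21.3 against 8.48 CPM) and Slc5a8 (26.6 and 20.1 against 10.4 CPM). In the T cell-like cells of WT these 2 genes were at 5.72 and 11.2 CPM, so the WT value of Slc5a8 was no higher than that level. With the T cell-like level subtracted the call of Slc5a10 was kept. For Slc5a8 the subtraction removed the whole WT value, so its call there was fixed in advance and shows nothing. The called fall was Slc7a13, at 11.3 and 10.54 against 22.4 CPM, all no higher than about the T cell-like levels in the same libraries. Slc5a10 and Slc5a8 were not called with the same lowest UMI total in all libraries or at a clustering resolution of 2, and Slc5a8 also not with at least 500 genes per cell. Slc7a13 was not called with a limit of 20% mitochondrial UMIs or with the T cell-like level subtracted.

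In S2/S3-like PT cells 28 members passed the filter, 0 were called lower and 3 higher, with 0.586% lower and 1.52% higher among all 6822 genes. Slc38a3, the glutamine carrier SNAT3 that supplies ammonia formation, was at 16.7 and 13.6 CPM in the Aoah-/- libraries and 4.96 CPM in WT. Slc1a4, for serine and other small neutral amino acids, was at 20.3 and 15.4 against 10.3 CPM. Slc43a2 was at 51.1 and 52.0 against 31.6 CPM, near the 25.8 to 29.5 CPM of T cell-like cells. Whether T cell-like cells make this RNA themselves was not tested. Of the other members, Slc5a1, the late glucose carrier (48.2 and 46.0 against 32.3 CPM) and Slc5a10 (163 and 158 against 116 CPM) lay above WT in both libraries but under 1.5-fold. Slc7a13, at 524 and 668 against 712 CPM, had a log2 ratio of the mean of -0.26. Slc1a4 was not called under 4 of the 12 alternatives and Slc38a3 under 3. Over these alternatives the log2 ratio was 0.54 to 0.93 for Slc1a4 and 1.15 to 1.60 for Slc38a3. The mean of Slc38a3, 11.8 CPM, was near the 10 CPM filter. Both libraries were above WT for 19 of the 28 members, against 31.5% of all genes. S2/S3-like cells were a mixture too, with 820, 837 and 1488 cells in a first cluster and 2075, 1275 and 2616 in a second. Deep S3-like cells are still counted there. Median UMIs per cell were 16148 and 3713. Log2 ratios in the first and second cluster were 0.05 and 0.56 for Slc6a19, 0.03 and 0.43 for Slc2a2 and 0.10 and 0.28 for Slc1a1. Slc38a3 had 1.54 and 1.23. The part of this mixture in the values above WT was not tested.

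By group, the summed basolateral carriers had a log2 ratio of 0.42 (SD 0.20 between the 2 Aoah-/- libraries) in S2/S3-like and 0.17 (SD 0.07) in S1-like cells. The apical glucose carriers had 0.32 (SD 0.08) and -0.03 (SD 0.15), but the first turned to -0.14 with a limit of 20% mitochondrial UMIs and to -0.13 with at least 500 genes per cell, and the second to 0.20 as a mean over cells. The neutral amino acid carriers had 0.12 (SD 0.10) and 0.23 (SD 0.02). The group of Slc3a1, Slc7a9, Slc7a12 and Slc7a13 (Slc3a1 group below) had -0.14 (SD 0.18) and 0.06 (SD 0.01). Its largest part in S2/S3-like cells was Slc7a13. The S1-like value turned to -0.24 with the same lowest UMI total and to -0.20 at resolution 2. Other cells' RNA also moved with the genotype. Summed over 7 lymphocyte markers, 9.03 and 12.1 CPM were counted in S1-like cells of the Aoah-/- libraries against 4.15 CPM in WT, and over 8 myeloid markers 99.6 and 92.0 against 43.5 CPM, with none of the markers at 0. In S2/S3-like cells these sums were 7.35 and 10.9 against 4.01 CPM and 109 and 84.0 against 40.6 CPM. The part of this RNA in the transporter values was not tested.

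**Figure D3:**
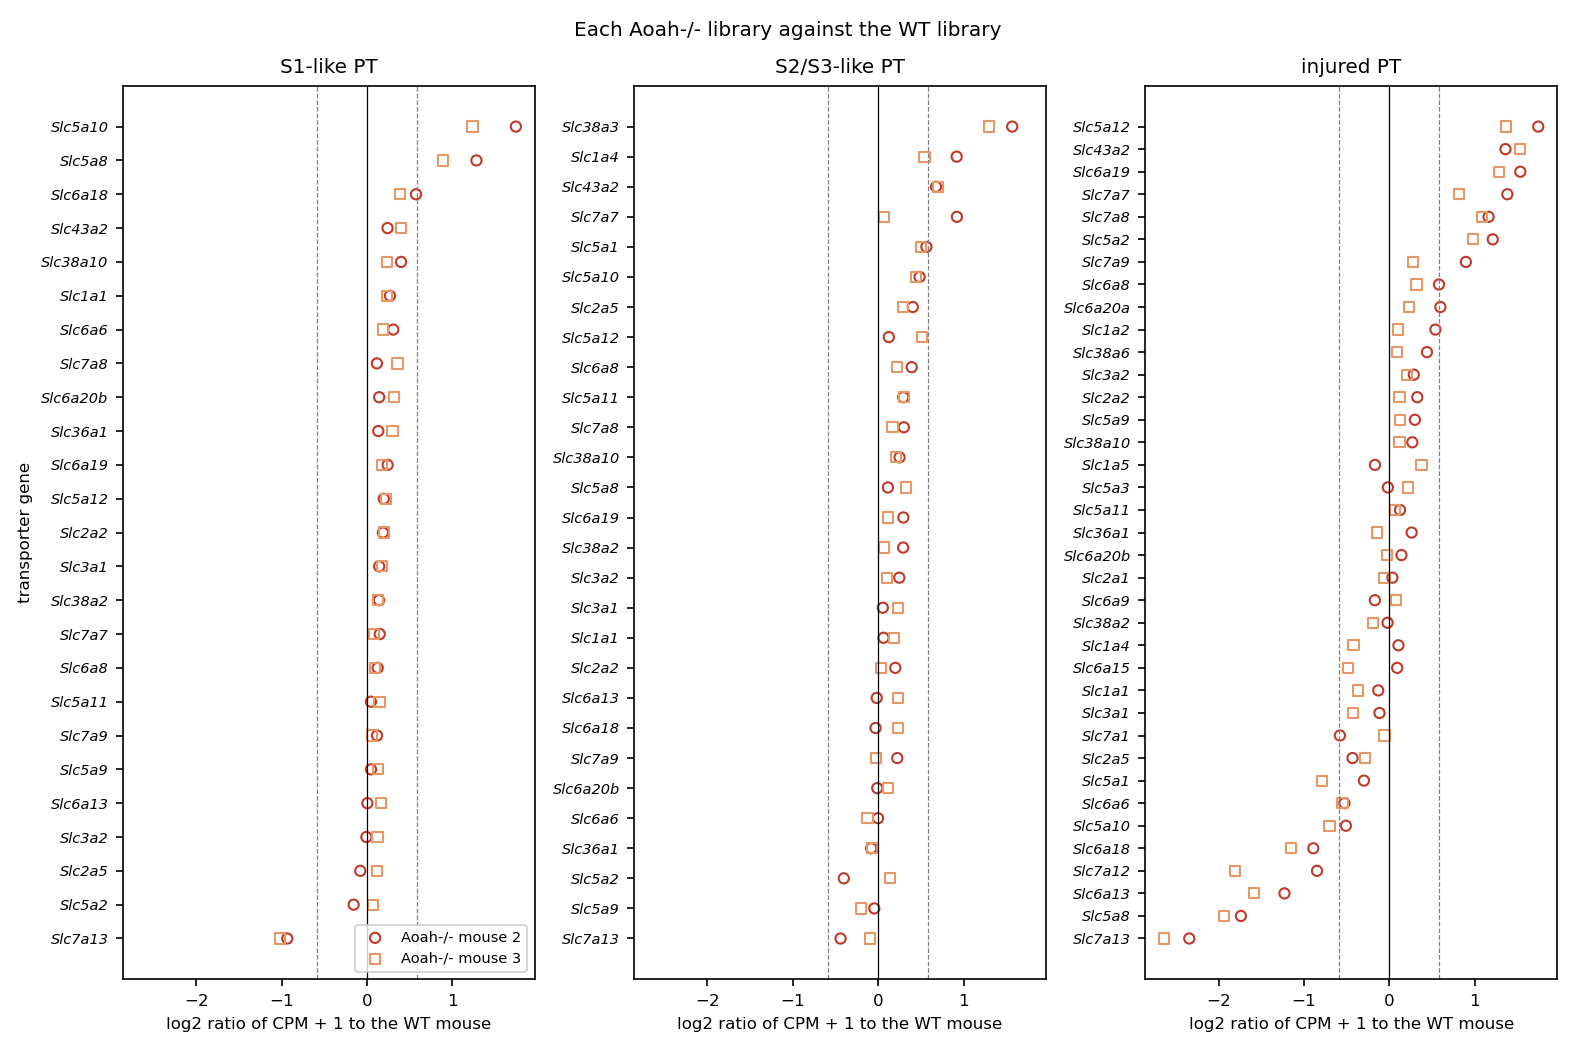
Log2 ratio of CPM + 1 of each Aoah-/- library (circle, mouse 2; square, mouse 3) to the WT library for the members that passed the filter in S1-like PT (25), S2/S3-like PT (28) and injured PT-like cells (37). Dashed lines mark 1.5-fold; in the first 2 panels most symbols lie between 0 and the right dashed line, and in injured PT-like cells 5 members lie beyond the left line and 6 beyond the right line in both libraries.

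Among the PT classes, injured PT-like cells had the most members called between genotypes, and there the members of the early and the late tubule went in opposite directions. Of 37 members that passed the filter, 5 were called lower and 6 higher, against 3.09% and 3.7% of all 8599 genes. The 5 lower members were Slc7a13, Slc5a8, Slc6a13, Slc7a12 and Slc6a18. Of these, 4 had been called higher in S2/S3-like than in S1-like cells, and Slc7a12, a relative of Slc7a13, had been below that filter. The 6 higher members were Slc5a12, Slc43a2, Slc6a19, Slc7a7, Slc7a8 and Slc5a2, and all 6 had been called lower in S2/S3-like than in S1-like cells.

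Slc7a13 was at 58.2 and 47.3 CPM (95% Poisson intervals 49.6 to 68.0 and 41.0 to 54.4) in the injured PT-like cells of the Aoah-/- libraries and at 300 CPM (276 to 325) in WT, which is 5.15- and 6.33-fold lower. In T cell-like cells the fall was smaller, from 24.6 to 11.7 and 17.2 CPM. Slc5a8 was at 43.7 and 38 against 148 CPM and Slc6a18 at 92.8 and 77.2 against 173 CPM. Slc6a13 was at 46.2 and 35.9 against 110 CPM. The calls of Slc6a18, Slc6a13 and Slc7a12 were each lost under 3 of 12 alternatives, where Slc6a18 turned to log2 ratios of up to 0.22 and Slc6a13 came to -0.035. Slc7a12 (chr3:14480697-14505830), at 42.2 and 21.3 against 76.8 CPM, had its highest mean of the compared classes in injured PT-like cells, 12.0-fold that in S2/S3-like cells. The deep S3-like class was not among those compared. Its 45 cells of the WT mouse held 44 UMIs of Slc7a12 among 345206 UMIs, a higher level than in the injured PT-like cells of that mouse.

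Among the rises, Slc5a12 was at 161 and 124 against 47.4 CPM and Slc6a19 at 88.4 and 74.1 against 29.9 CPM. Slc5a2 was at 236 and 201 against 101 CPM and lost its call under 3 of 12 alternatives. Slc7a7 (138 and 92.7 against 52.4 CPM) and Slc7a8 (64.8 and 61.2 against 28.4 CPM) were called too, but lost the call under 5 and 6 of 12 alternatives. Slc43a2 was at 65.5 and 73.9 against 24.9 CPM, the WT value being no higher than in T cell-like cells (25.8 CPM). The source of that T cell-like level was not tested. Slc6a6, at 442 and 435 against 638 CPM, and Slc3a1, at 149 and 120 against 161 CPM, were under 1.5-fold.

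**Figure D4:**
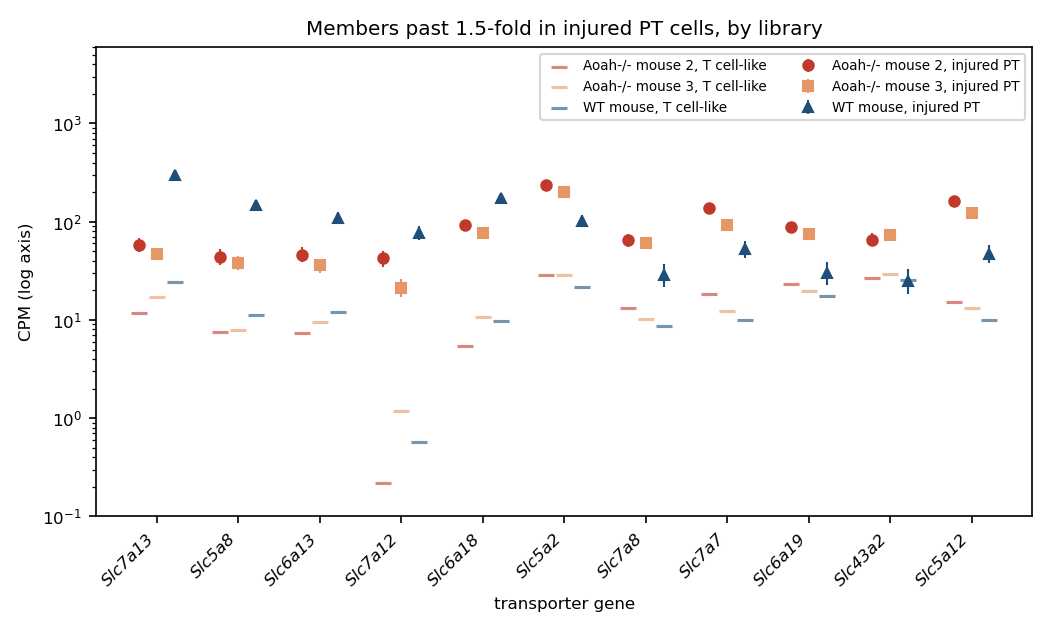
Level in CPM (log axis) of the 11 members called in injured PT-like cells, with exact Poisson 95% intervals that cover counting error only (red circle, Aoah-/- mouse 2; orange square, Aoah-/- mouse 3; blue triangle, WT mouse), and horizontal dashes for the T cell-like cells of the same library. The WT triangle lies above both Aoah-/- symbols for the 5 genes on the left and below them for the 6 on the right.

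Segment genes that are no members moved in the same directions in these cells. The summed level of 6 S1 genes was 2059 and 1918 CPM in the Aoah-/- libraries and 1066 CPM in WT, with all 6 above WT in both libraries. The summed level of 12 S3 genes was 406 and 422 against 1429 CPM, and all 12 were below WT in both. The log2 ratios were 0.90 and -1.78. In the S1-like and S2/S3-like cells the same S3 sums had log2 ratios of 0.21 and 0.00, and the S1 sums 0.15 and 0.29. In T cell-like cells the S1 sum was 385 and 335 against 233 CPM, a log2 ratio of 0.63, and the S3 sum had -0.22. The early or late origin of the injured cells and the level per cell of a given origin cannot be told apart here. Myeloid markers summed to 210.0 and 284 against 64.8 CPM in injured PT-like cells, distal tubule markers to 140 and 232 against 32.9 CPM and haemoglobin genes to 941 and 834 against 188 CPM. Their part in the result was not tested.

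The counts in injured PT-like cells depended on which cells the class held. With at least 500 genes per cell, 1 member was lower and 3 were higher, and Slc7a13 had a log2 ratio of -0.58 in place of -2.48, while that of the 12 S3 genes was -0.32 in place of -1.78. The S3 genes had -0.64 with the same lowest UMI total and -0.43 without high doublet scores. Slc7a13 then had -1.92 and -1.29, and 2 members were lower in each case. Under the other alternatives the S3 genes had -1.36 to -1.99. Slc5a8, Slc5a12 and Slc6a19 were called under all 12 alternatives.

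In the 17 compared classes that are not PT, Slc7a13 was below WT in both Aoah-/- libraries in 14 and called lower in 8, and above WT in both in none. Slc6a19 was above WT in both libraries in 14 classes and called higher in 9. Slc5a12 and Slc7a7 were each called higher in 8 and lower in 0, and Slc5a2 higher in 6 and lower in 1. Slc6a18 was called lower in 5 and higher in 0. Other members had calls in both directions, such as Slc5a3 (lower in 3, higher in 5) and Slc36a1 (lower in 2, higher in 3). The share of all genes called in as many classes was not computed, and every class was compared with the same WT library. These classes include leukocytes. The counts by class below include calls of these PT carriers, and the part of free RNA in them was not tested. In these classes 23 to 34 members passed the filter, but only 10 in NK cell-like cells. The S2/S3-like share of PT cells, given above, was lower in the Aoah-/- libraries too, and its part in these values was not tested. Among members that such cells are known to use, Slc7a2, a carrier of arginine, was at 112 and 59.6 against 7.29 CPM in fibroblast- and pericyte-like cells. There 2 members were lower and 10 higher, against 10.7% and 13.8% of all genes, and these cells numbered 88, 327 and 386. The genotypes held different cells here: the pericyte-led cluster had 55, 146 and 23 cells and the fibroblast-led cluster 33, 181 and 363, so the mixture of cells and the level per cell cannot be told apart. In neutrophil-like cells 1 of 30 members was lower and 12 higher, against 3.13% and 17.4% of all genes. Slc7a11 was at 1007 and 1099 against 989 CPM there. In T cell-like cells 0 of 23 members were called, with 0.756% of all genes lower and 1.81% higher.

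In PT cells between the segments, 1 member was lower and 2 higher, against 0.447% and 2.67% of all genes. The lower member was Slc7a13, at 62.5 and 72.8 against 172 CPM, and Slc6a8, the creatine carrier, was higher at 206 and 212 against 133 CPM. In low-UMI PT cells 0 members were lower and 6 higher, against 1.13% and 6.22%.

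In TAL-like cells 4 members were lower and 4 higher, against 3.22% and 2.59% of all genes, and Slc5a3, their leading carrier, was not among them. In distal convoluted tubule-like cells 3 were lower and 1 higher, against 0.843% and 1.4%. In principal cell-like cells 0 were lower and 6 higher, against 1.93% and 2.49%, with Slc2a4 at 19.1 and 19.2 against 11.1 CPM. In intercalated cell-like cells 2 were lower and 2 higher, against 0.87% and 1.19%. Slc7a13 was among the lower members of TAL-like, distal convoluted tubule-like and intercalated cell-like cells. In urothelial-like cells 2 were lower and 5 higher, against 2.51% and 2.7%. Injury-led cells without PT markers had 0 lower and 1 higher, against 1.54% and 2.41%.

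In macrophage-like cells 1 member was lower and 4 higher, against 0.725% and 3.29% of all genes. Slc43a2, a carrier for large neutral amino acids, was at 96.2 and 79.1 against 46.8 CPM there. The macrophage-like class was unevenly made up, with 1408, 27 and 78 cells in a cluster led by Saa3 and Fn1 and 855, 180 and 1105 in a cluster of low UMI count, and the part of this in the values was not tested. In monocyte-like cells 4 were lower and 4 higher, against 1.99% and 3.51%, and in dendritic-like cells 1 and 1, against 1.39% and 2.45%. In B cell-like cells 2 were lower and 3 higher, against 2.8% and 4.23%. The NK cell-like cells had 1 lower and 1 higher, against 2.71% and 5.51%. Slc5a3, the inositol carrier, was the lower one, at 19.7 and 29.8 against 75.3 CPM. In endothelial-like cells 2 were lower and 7 higher, against 1.48% and 4.76%, in erythroid-like cells 0 and 6, against 0.805% and 13.4%, and in cycling cells 6 and 3, against 4.17% and 7.98%.

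Partners and regulators of the carriers were compared in the PT classes as well. Of 13 such genes, 1 was called lower and 0 higher in S1-like cells, 1 and 0 in S2/S3-like cells, and 1 and 1 in injured PT-like cells. The lower gene was Sgk1, a kinase that stimulates several of these carriers, in all 3 classes, at 17.9 and 24.99 against 59.0 CPM in S1-like, 44.2 and 34.9 against 84.5 CPM in S2/S3-like and 46.6 and 41.8 against 88.8 CPM in injured PT-like cells. The higher gene was Tmem27, at 874 and 901 against 540.1 CPM. Of 10 genes of the amino acid response, 5, 5 and 8 passed the filter in these classes. Psat1, an enzyme of serine synthesis, was the only gene of this list called, higher in S2/S3-like (14.8 and 13.2 against 8.16 CPM) and injured PT-like cells (27.3 and 23.9 against 4.99 CPM). In S1-like cells Psat1 was at 49.8, 46.3 and 32.3 CPM. Between the segments Psat1 was called lower in S2/S3-like cells. So was Phgdh of the same list, at 26.3, 28.3 and 31.0 against 0.983, 0.950 and 0.640 CPM. Phgdh was not called between genotypes in any of these 3 classes. Atf4 itself was at 160 and 164 against 189 CPM in the injured PT-like cells. In PT cells between the segments, 0 of the 13 partners and regulators were called lower and 1 higher, so the fall of Sgk1 was not called there.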

How the data were processed

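Kidney cells of 3 mice were measured, 1 library per mouse. The authors deposited raw UMI counts per gene and barcode, already limited to called cells. The matrix header names Cell Ranger 6.1.2, the submitters' processing notes Cell Ranger 3.1.0, STAR and Seurat 4.2.0, with mm10. Why the versions differ is not given in the sources used here. The labels name a 3′ v2 kit.

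Barcodes under 200 genes or over 50% mitochondrial UMIs were dropped and the rest clustered with scanpy 1.11.5 (2000 variable genes, 50 principal components, 15 neighbours, resolution 1) without the members, Aoah and mitochondrial genes, and PT clusters again at resolution 0.5. A cluster was named when its 5 best markers averaged at least 2 on the log2 scale over other clusters and at least 3 markers were 2-fold higher. It stayed unnamed all the same where it was too small, where its leading genes held more markers of another type, where another type scored nearly as high, where PT markers were raised beside those of another type, where a low-UMI cluster had no own marker among its leading genes, or where an injury-led cluster lacked PT markers. The planned division into S1/S2 and S3 was replaced by S1-like and S2/S3-like after the data were seen, because S2 markers lay with part of the S3 markers. Doublets were kept in the main values. Scrublet called 516, 0 and 246 of them in Aoah-/- mouse 2, Aoah-/- mouse 3 and WT, and an alternative left out the 10% of cells with the highest scores.

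CPM is a gene's UMI sum in a class of a library over that class's total. Log2 ratios used CPM + 1. A gene was compared at a mean of at least 10 CPM and at least 30 UMIs, and called at 1.5-fold in both Aoah-/- libraries (genotype) or 2-fold in all 3 libraries (segment). With 1 WT library no test was run. Poisson 95% intervals cover counting error only. The calling steps were tested on simulated counts. Named genes were a list of main carriers, the members of largest change, the leading members of other classes and the called members. Members and lists were chosen with earlier results of these data known. Alternatives covered cell filters, clustering, scaling, doublets, immune RNA and left-out libraries. A gene of the partner list and a motif that was searched are not reported here.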

Additional observations from a re-analysis of the deposited data

Results flagged for a closer look

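Slc5a8, the high-affinity lactate carrier of the late PT, went in opposite directions in 2 PT classes. Against WT, the Aoah-/- mean had a log2 ratio of 1.10 in S1-like PT cells and -1.83 in injured PT-like cells, with both Aoah-/- libraries above WT in the first and below it in the second. The first value turned to -0.17 with the same lowest UMI total in all libraries and to -0.12 at resolution 2, so the opposite directions were not found there. In S1-like cells the WT level of Slc5a8, 10.4 CPM, was no higher than the 11.2 CPM of the T cell-like cells of WT. The difference between the classes was not tested.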

How the results depend on the processing

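Of the summary values under alternatives 186 stayed within their limits and 44 moved, and of the values of single genes and further lists 310 stayed and 190 moved, while 6 that were past the fold threshold changed sign. Smaller values that changed sign are counted as moved or, within the spread between libraries, as stayed. No paired analysis was possible because the groups share only the replicate number 3. Subtraction of the T cell-like level was chosen after seeing the data.

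In S1-like PT cells, 0 members were lower with a limit of 20% mitochondrial UMIs and 0 with the T cell-like level subtracted, and 3 were lower without the filter on low values. Higher members numbered 1 with at least 500 genes per cell, 0 with the same lowest UMI total, 0 at resolution 2 and 13 without the filter, where 44 had both libraries above WT. The log2 ratio of the apical glucose carriers was 0.20 as a mean over cells. That of the neutral amino acid carriers was 0.38 with 20% mitochondrial UMIs, 0.16 with 500 genes, 0.18 with the same lowest UMI total, 0.20 at resolution 2, 0.29 over non-mitochondrial UMIs and 0.51 as a mean over cells. That of the Slc3a1 group was, in the same order, 0.19, 0.019, -0.24, -0.20, 0.12 and 0.026, and 0.091 without high doublet scores, 0.032 without cells with an immune marker and 0.14 with the T cell-like level subtracted. That of the basolateral carriers was 0.37 with the same lowest UMI total, 0.36 at resolution 2 and 0.37 as a mean over cells.

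In S2/S3-like PT cells, 1 member was lower with 500 genes and 2 without the filter, and 1 was higher without cells with an immune marker and 12 without the filter, where 38 had both libraries above WT. The apical glucose carriers had -0.14 with 20% mitochondrial UMIs, -0.13 with 500 genes and 0.50 with the T cell-like level subtracted, which gave 0.78 for the basolateral carriers. The subtraction removed Slc5a2 and Slc3a2 there in every library, since T cell-like cells held more of both. The T cell-like level of Slc3a2 need not be free RNA, so nothing is concluded from the 0.78. In injured PT-like cells 1, 2, 2 and 9 members were lower with 500 genes, the same lowest UMI total, without high doublet scores and without the filter, and 3, 2 and 3 were higher with 500 genes, the same lowest UMI total and at resolution 2. Between segments 13 members were lower in S2/S3-like cells with 20% mitochondrial UMIs. Slc5a8 in S1-like cells turned to -0.17 with the same lowest UMI total and -0.12 at resolution 2. In injured PT-like cells the Slc3a1 group turned to 0.039 with 500 genes and 0.11 without high doublet scores, and Slc6a18 to 0.22 and 0.12. The cause was not tested.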
